A study of Homo sapiens with 24 samples.

Results

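The DNA replication and S phase genes examined here are 44 genes chosen by symbol, and each of the 44 was found as 1 row in the 48 h table, which covers 61541 genes, and as 1 row in the 72 h table, which covers 19818. RNA was sequenced from U2932, an established human diffuse large B-cell lymphoma line, after nucleic acid reagents directed at MYC, in 24 libraries. At 48 h there were 4 libraries labelled PNA2 (a gamma peptide nucleic acid, a synthetic analogue with a peptide-like backbone, at a labelled dose of 8 mM whose unit is doubtful), 4 with MYC siRNA at 500 nM given by electroporation, and 6 from cells given PBS. At 72 h there were 5 PNA2 and 5 PBS libraries. All groups share the one cell line, no electroporated control is named, and the siRNA libraries carry the entries U2933 to U2936 for the line, 1 each, although their treatment text names U2932. The labels do not say whether replicates were separate cultures, so the p-values measure the spread between libraries, which may be technical. The extraction text names 48 h for the 72 h libraries too; titles and time entries were followed.

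Chromosome duplication begins with licensing, when the origin recognition complex, CDC6 and CDT1 load the ring of MCM2 to MCM7 onto DNA. CDC45 and the GINS complex then turn that ring into an active helicase, primase and polymerase alpha start each strand, RFC loads the PCNA clamp, and polymerases delta and epsilon extend the strands. Many of these genes are known targets of E2F factors and are transcribed around the G1/S boundary, and MYC is known to promote entry into S phase.

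The promoter stretches below show the E2F-type sites of 8 members whose transcripts are described further on. Each is the 100 bases before the start of the gene in the RefSeq table (GRCh38.p14), 5′ to 3′ on the strand of the gene, with the site in capitals. MCM6 carries a pair of overlapping matches, shown as one run.
MCM6, chr2:135876444-135876543, reverse strand: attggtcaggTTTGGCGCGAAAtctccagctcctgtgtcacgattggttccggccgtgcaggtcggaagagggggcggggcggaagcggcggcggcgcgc
POLA2, chr11:65261862-65261961, forward strand: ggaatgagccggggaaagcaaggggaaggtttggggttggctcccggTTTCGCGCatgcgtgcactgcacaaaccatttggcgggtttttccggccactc
POLE, chr12:132687343-132687442, reverse strand: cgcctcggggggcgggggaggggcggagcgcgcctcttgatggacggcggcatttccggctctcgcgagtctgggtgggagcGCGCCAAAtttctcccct
RFC3, chr13:33818049-33818148, forward strand: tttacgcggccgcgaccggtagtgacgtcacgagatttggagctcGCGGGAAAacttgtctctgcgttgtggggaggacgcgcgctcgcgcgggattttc
GINS2, chr16:85688955-85689054, reverse strand: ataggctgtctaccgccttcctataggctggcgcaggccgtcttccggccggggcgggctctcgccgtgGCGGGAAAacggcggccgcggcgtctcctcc
CDT1, chr16:88803689-88803788, forward strand: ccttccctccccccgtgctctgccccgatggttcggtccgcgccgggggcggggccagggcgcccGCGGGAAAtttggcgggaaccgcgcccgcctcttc
UHRF1, chr19:4909401-4909500, forward strand: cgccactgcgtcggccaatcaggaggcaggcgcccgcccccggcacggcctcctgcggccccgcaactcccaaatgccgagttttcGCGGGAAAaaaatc
PCNA, chr20:5126623-5126722, reverse strand: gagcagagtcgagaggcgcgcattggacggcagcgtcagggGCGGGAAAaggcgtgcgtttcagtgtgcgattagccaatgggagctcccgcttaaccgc

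The table held promoters of 37 members, in 48 windows of 300 bases (250 before and 50 after a start). The E2F site was searched as TTTCGCGC, TTTGGCGC, TTTCCCGC or TTTGCCGC on both strands and was found in 39.6% of the member windows, against 3.31% of all 35116 windows and 4.91% of those of genes tested at 72 h. It was present for 18 of the 37 members, namely CDC6, CDT1, GINS1, GINS2, GINS3, MCM2, MCM3, MCM6, MCM7, PCNA, POLA1, POLA2, POLE, POLE2, RFC3, LIG1, TIPIN and UHRF1. The E-box CACGTG, the core site of MYC, was found in 10.4% of member windows (MCM2, MCM7, FEN1, RPA1 and CHAF1A), against 7.26% of all windows and 9.52% of those of genes tested at 72 h. CCAAT was found in 60.4% of member windows and 34.6% of all windows. The 8 promoters shown include genes called higher in a PNA2 comparison (MCM6, GINS2, CDT1, PCNA) and genes called lower in one (POLA2, POLE, RFC3, UHRF1).

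The 48 h values, read counts adjusted per gene and batch by the authors, summed to 14.88 M to 16.03 M (M for mega, 1e6) per library with PNA2, 12.63 M to 16.17 M with siRNA and 11.12 M to 14.46 M with PBS. They were divided here by a scale per library (TMM), and the result is called the scaled value. The 72 h values are counts divided by a size factor per library, from 11.25 M to 13.69 M recovered reads with PNA2 and 8.215 M to 13.28 M with PBS. The 48 h libraries fall into batch A (3 PBS, 2 PNA2, 4 siRNA) and batch B (3 PBS, 2 PNA2), read from tied values, and 2 of the PBS columns carry no replicate number of their own. All 7 B lineage markers were expressed, in every group. Of 9 T and NK cell markers CD3D, CD2 and GNLY stood at 0 in every library, and the list's summed level ran from 242 to 428 with PNA2, 254 to 281 with siRNA and 84 to 259 with PBS at 48 h, with CD8A called higher with both reagents. The summed myeloid markers stayed between 7.55 and 23.1 at 48 h, with S100A8, S100A9 and FCGR3A at 0, and the stroma and epithelium list ran from 216 to 473 with PNA2, 280 to 304 with siRNA and 195 to 281 with PBS. At 72 h these lists ran from 27.9 to 51 with PNA2 against 8.63 to 36 with PBS (T and NK, 8 genes), 17.5 to 30 against 14.4 to 45 (myeloid) and 130 to 191 against 127 to 164 (stroma and epithelium). Messenger RNA of the mitochondrial genome took 4.3% to 5.78% of the total with PNA2, 1.89% to 2.16% with siRNA and 1.38% to 2.92% with PBS at 48 h, and 6.15% to 8.3% with PNA2 against 3.96% to 4.63% with PBS at 72 h. The part of these levels in the results was not tested. Of the 44 genes 19 overlap another annotated gene on the opposite strand, among them MCM2, GINS2, RFC3, POLA1, PRIM1, RPA1, RPA3, FEN1 and CHAF1A. Whether the counting used strand is not given in the sources used here, so reads of the overlapping gene may be included in their values.

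MYC, the targeted gene, had scaled values of 7181, 7318, 7861 and 8907 in the 4 PNA2 libraries. In the siRNA libraries it had 3588, 3967, 4184 and 3610, against 5452, 6885 and 7648 (lowest, median and highest of 6) with PBS. It fell by 0.81 on the log2 scale with siRNA (limma adjusted p = 0.000318). With PNA2 the log2 change was 0.24 (limma adjusted p = 0.096), so a knockdown of the MYC transcript, which the label implies, did not appear there. Without PNA2 replicate 2, a library described below, MYC was called higher, by 0.28 (limma adjusted p = 0.0403, range over the alternatives 0.00826 to 0.877). The libraries at 72 h did not differ from PBS beyond their spread (459.9, 1966 and 2032 lowest, median and highest with PNA2, and 826.4, 2035 and 2845 with PBS; log2 change -0.18, limma adjusted p = 0.794). Directions given below for PNA2 are therefore those of the libraries labelled PNA2.

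**Figure D1:**
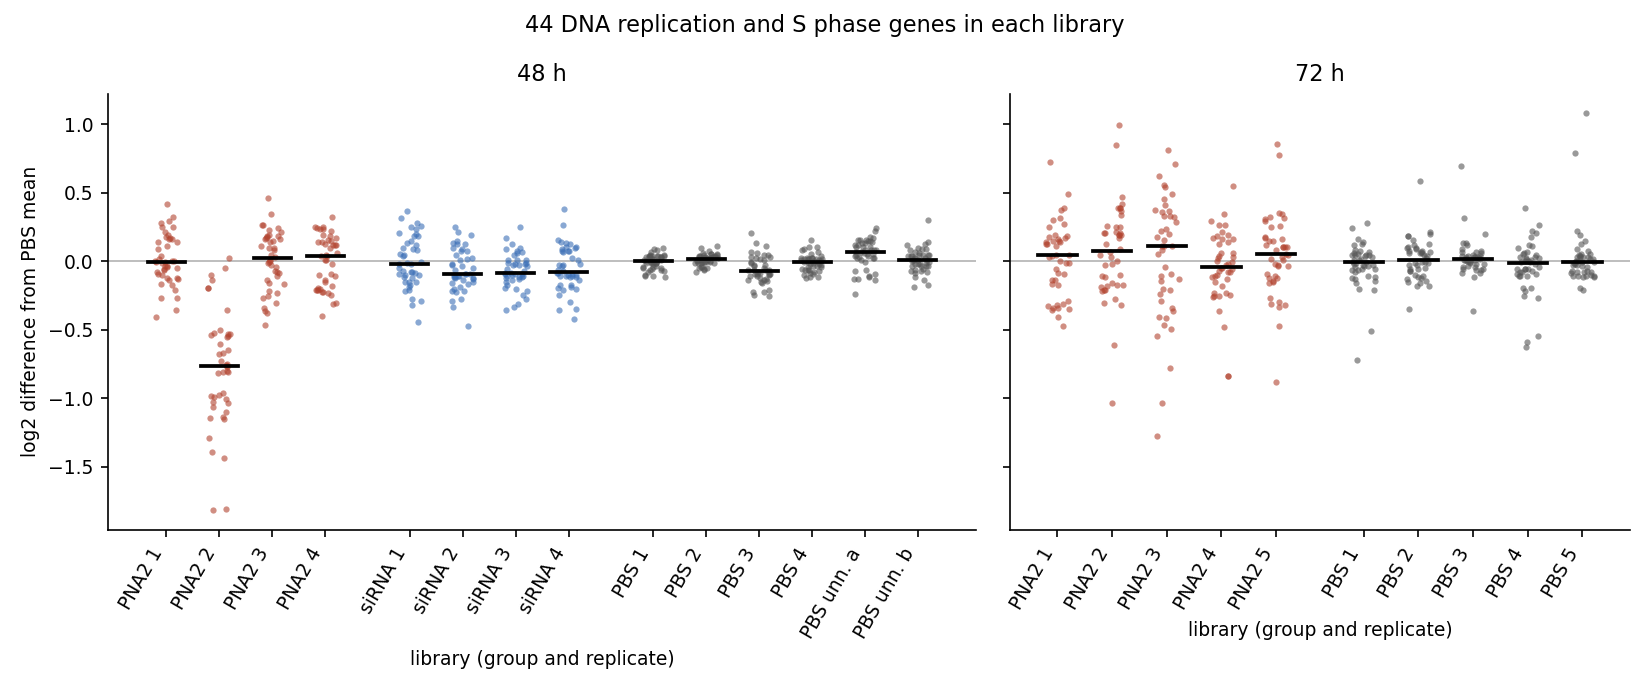
Log2 difference of each of the 44 genes from the PBS mean (of the same batch at 48 h), one point per gene, for each library, with the median as a bar; PBS unn. a and b are the unnumbered PBS libraries. PNA2 replicate 2 at 48 h lies low with a median of -0.768, while the other PNA2 libraries at 48 h have medians from -0.004 to 0.039.

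One library stood apart over most of these genes. In PNA2 replicate 2 at 48 h, 43 of the 44 genes lay below the PBS mean of its batch and the median difference was -0.768 on the log2 scale. The other 3 PNA2 libraries at 48 h had medians of -0.004, 0.021 and 0.039, with 19 to 23 genes below the PBS mean. The medians of the siRNA libraries ran from -0.09 to -0.021 and those of the PBS libraries at 48 h from -0.07 to 0.068. The spread over all genes was also widest in that library, with an SD of 0.833 against 0.422 to 0.491 in the other 3 PNA2 libraries. The 48 h calls that use the PNA2 group are therefore given with and without it. The siRNA comparison shares its estimate of spread and its batch term with all PNA2 libraries at 48 h. All siRNA libraries are in batch A, where this library also is. It therefore enters the siRNA log2 changes through the batch term, and the p-values through the spread as well. The siRNA comparison without this library alone is not reported here. The fit of siRNA and PBS alone, given below, holds no PNA2 library. In bulk RNA, fewer cells in S phase and less of these transcripts per cell cannot be told apart.

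The genes were abundant in untreated cells. On the scale of value per kilobase of exon, PCNA, the sliding clamp, was the highest at 3890 ± 265 with PBS at 48 h (SD, n = 6) and 3150 ± 216 with PBS at 72 h (SD, n = 5). MCM7, MCM3 and MCM2, helicase subunits, followed at 48 h with 2150 ± 229, 1920 ± 170 and 1580 ± 173 per kilobase, and the means ± SD of MCM7 and MCM3 overlap. POLA2, the second subunit of polymerase alpha, was the lowest at 48 h with 41.3 ± 4.59 per kilobase, at percentile 39.5 of the genes tested. With PBS at 72 h POLA2 stood at percentile 77.1, and the cause of that difference was not tested. The lowest at 72 h was PRIM2, the large subunit of primase, with 52.5 ± 5.71. The median member stood at the 85.65th percentile of the genes tested at 48 h and at the 84.95th at 72 h. The tables were normalized separately, so levels are not compared across them.

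With PNA2 at 48 h, 7 of the 44 genes fell and 0 rose, with a median log2 change of -0.186 over the 44 against -0.002 over all genes tested. A gene is counted as risen or fallen when its two-sided limma p, adjusted by Benjamini and Hochberg over all genes tested, is below 0.05. These 7 and 0 of the 44 stand against 8.57% lower and 8.11% higher among all 14136 genes tested at 48 h. The genes that fell were UHRF1, POLD1, POLE, POLA2, RFC3, FEN1 and CHAF1A, and 14 of the 44 had an unadjusted p below 0.05, where 32.0% of all genes did. Without PNA2 replicate 2 the picture changed: 5 rose (GINS2, MCM6, RPA2, RPA3 and SLBP), 7 fell (UHRF1, POLD1, POLE, RFC3, FEN1, CHAF1A and MCM10), and the median was 0.036. In that fit 8.58% of all genes rose and 9.29% fell. By batch, the median was -0.402 in batch A, which holds replicate 2, with 0 higher and 4 lower (6.43% and 7.52% of all genes), and 0.033 in batch B, with 1 higher and 4 lower (5.86% and 7.33%). Leaving out PNA2 replicate 1 instead gave 16 lower, where 11.8% of all genes were lower. Leaving out PNA2 replicate 3 or PBS replicate 1 or 2 gave 4 (6.66%, 6.37% and 6.42% of all genes), and leaving out PBS replicate 4 gave 3 (6.43%). On the deposited values with no rescaling, where all genes shifted up by 0.194, 0 rose and 1 fell (14.2% and 1.18% of all genes), and the median was 0.013.

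Among the chromatin and histone supply genes UHRF1 changed most. UHRF1, which brings the maintenance DNA methyltransferase to newly made DNA, had scaled values of 3219, 2048, 3032 and 3168 in PNA2 replicates 1 to 4, against 3957, 4247 and 4662 (lowest, median and highest of 6) with PBS. All PNA2 libraries lay below all PBS libraries, replicate 2 lowest. The log2 change was -0.58 (SE 0.10, 95% CI -0.80 to -0.37, limma adjusted p = 0.00185), it was -0.42 without replicate 2, -0.74 in batch A and -0.43 in batch B, and the call held in all 22 alternatives tried (limma adjusted p from 7.37e-05 to 0.0478). CHAF1A, the large subunit of the factor that deposits histones behind the fork, had 2327, 1101, 2258 and 2300 with PNA2, against 2382, 2708 and 3007 (lowest, median and highest) with PBS. Its groups did not overlap, but 3 of the PNA2 libraries lay just under the lowest PBS library, and its change of -0.50 (limma adjusted p = 0.0398) was -0.23 without replicate 2, and the call was lost in 12 of 22 alternatives. SLBP, which binds the stem-loop of histone messenger RNA, had 3648, 2207, 3446 and 3390 with PNA2, against 2900, 3197 and 3318 with PBS. The 3 other PNA2 libraries lay above every PBS library and replicate 2 below all of them, so the change was -0.01 with it and 0.17 without it (limma adjusted p = 0.036, range over the alternatives 0.036 to 1.0). TIPIN, a fork protection factor, changed by -0.01 with replicate 2 and 0.18 without it, neither past the threshold.

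The polymerases and primase held 3 of the 7 genes that fell. POLD1, the catalytic subunit of polymerase delta, had 2661, 1628, 2365 and 2406 in PNA2 replicates 1 to 4, against 2761, 3149 and 3334 (lowest, median and highest) with PBS. Every PNA2 library lay below every PBS library. The log2 change was -0.48 (SE 0.11, 95% CI -0.70 to -0.25, limma adjusted p = 0.00859) and was -0.30 without replicate 2, -0.62 in batch A and -0.32 in batch B. POLE, the catalytic subunit of polymerase epsilon, had 3159, 2074, 2779 and 2917 with PNA2, against 3123, 3417 and 3701 with PBS. Only PNA2 replicate 1 reached into the PBS range. The change was -0.35 (limma adjusted p = 0.0209), and -0.21 without replicate 2, where it still passed. POLA2 had 189.0, 134.3, 186.8 and 209.9 with PNA2, against 205.1, 236.5 and 270.5 with PBS, and its change of -0.40 did not pass without replicate 2 (-0.29, limma adjusted p = 0.0616, range over the alternatives 0.0106 to 0.382). POLA1, the catalytic subunit of polymerase alpha, was at 804.9 in replicate 2 and at 1614 to 1882 in the other PNA2 libraries, against 1466 to 1850 with PBS. PRIM1, the catalytic subunit of primase, was at 193.2 in replicate 2 and 314.2 to 323.5 in the others, against 261.1 to 296.1 with PBS. In replicate 2 both genes lay below every PBS library, while in the other 3 PRIM1 lay above every PBS library and POLA1 within or just above their range. Neither passed with or without replicate 2.

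**Figure D2:**
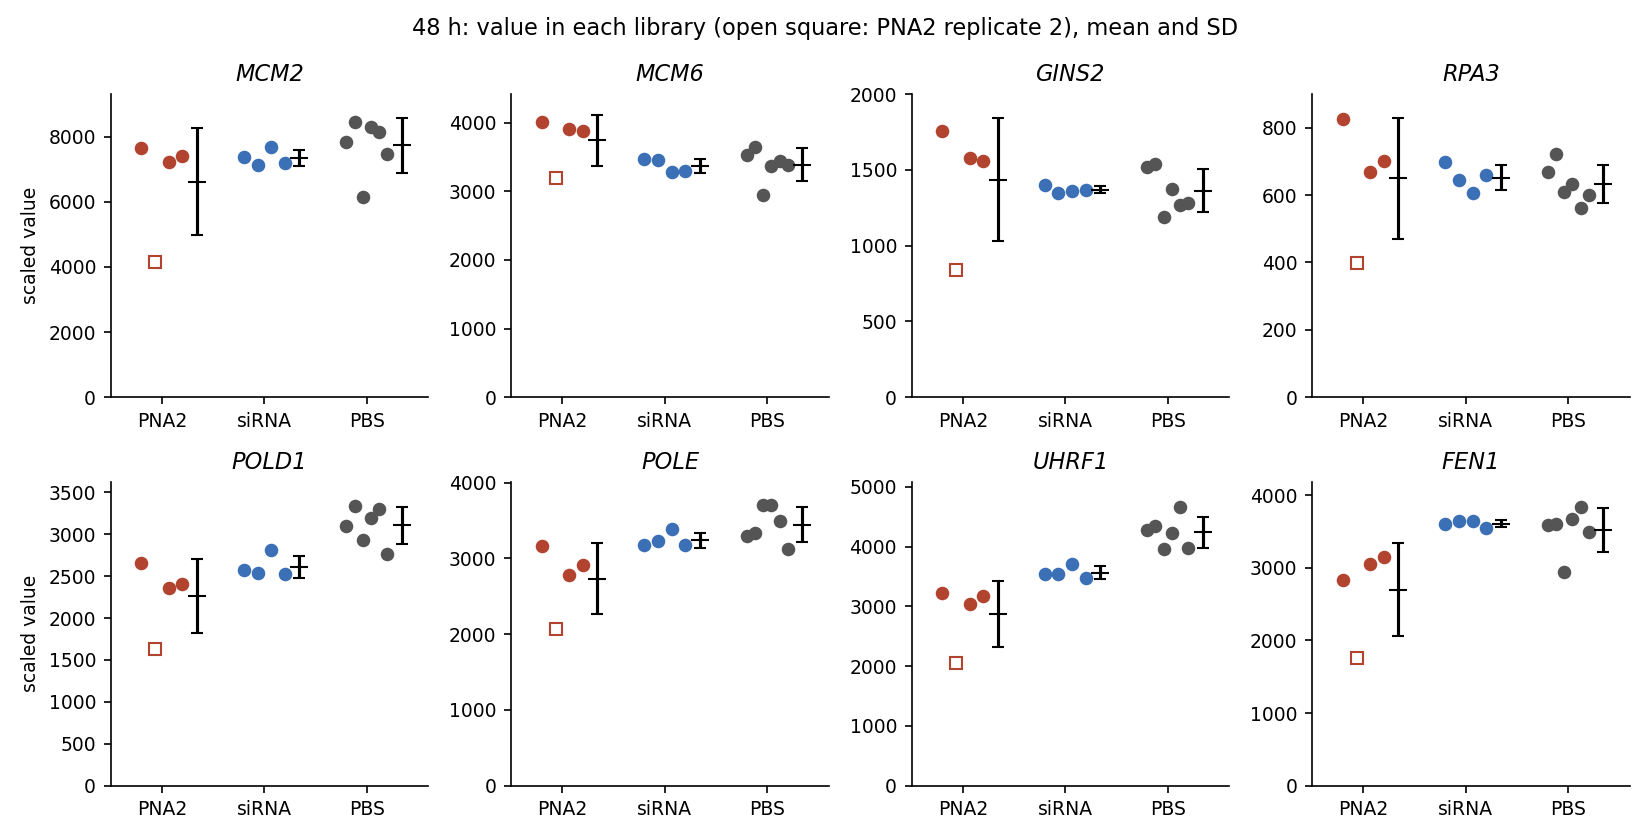
Scaled value at 48 h in each library for 8 genes (y axis, from 0), by group, with the mean and SD beside the points and PNA2 replicate 2 as an open square. For POLD1 and UHRF1 all PNA2 libraries lie below all PBS libraries, while for MCM6 and GINS2 the 3 filled PNA2 points lie above the PBS points and the square below them or among them.

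The licensing and helicase genes mostly did not pass. All 10 licensing genes stayed short of the threshold with all PNA2 libraries, with a median change of -0.20, and without replicate 2 the median was -0.02 and MCM6 alone rose. MCM6, a subunit of the helicase ring, had 4008, 3197, 3905 and 3874 in PNA2 replicates 1 to 4, against 2946, 3418 and 3646 (lowest, median and highest) with PBS. The 3 libraries other than replicate 2 lay above every PBS library, and the change without replicate 2 was 0.23 (SE 0.06, limma adjusted p = 0.00888, range over the alternatives 0.00888 to 0.864). MCM2 had 7650, 4155, 7235 and 7416 with PNA2, against 6157, 7996 and 8463 with PBS, a change of -0.26 with replicate 2 and -0.02 without it. MCM5 moved in the same way, by -0.26 and -0.02. ORC1, the largest subunit of the origin recognition complex, changed by -0.28 (limma adjusted p = 0.0988) and by -0.11 without replicate 2, and CDC6, the loader, by -0.21 and -0.07.

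Of the 6 helicase activation genes 0 rose and 0 fell with all PNA2 libraries. GINS2, a subunit of the GINS complex, had 1759, 841.8, 1580 and 1559 in PNA2 replicates 1 to 4, against 1189, 1329 and 1541 (lowest, median and highest) with PBS. Replicate 2 was the lowest library of both groups and the other 3 were the highest. The change was 0.03 with replicate 2 and 0.30 without it (SE 0.06, 95% CI 0.19 to 0.42, limma adjusted p = 0.00104, the lowest of the alternatives, the highest being 0.999). In batch B, where replicate 2 is not, it was 0.34 (limma adjusted p = 0.014). MCM10, which helps start the helicase, had 1064, 457.0, 923.8 and 939.9 with PNA2, against 984.3, 1156 and 1227 with PBS, and changed by -0.49 (limma adjusted p = 0.0558) and by -0.19 without replicate 2 (limma adjusted p = 0.0332, range over the alternatives 0.0106 to 0.218). CDC45, the helicase cofactor, changed by -0.41 (limma adjusted p = 0.0683) and by -0.15 without that library.

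Among the clamp and its loaders RFC3, a small RFC subunit, had 853.4, 352.7, 673.2 and 741.5 in PNA2 replicates 1 to 4, against 828.1, 896.9 and 1013 (lowest, median and highest) with PBS. PNA2 replicate 1 lay within the PBS range and the rest below it. The change was -0.55 (SE 0.17, limma adjusted p = 0.0394) and -0.24 without replicate 2 (limma adjusted p = 0.0154), and the call was lost in 13 of 22 alternatives (limma adjusted p from 0.00531 to 0.158). PCNA was at 2912 in replicate 2 and 5300 to 6375 in the other PNA2 libraries, against 5183 to 6115 with PBS, so that replicate 2 lay far below PBS, replicate 1 just above it and the rest within it. FEN1, the flap nuclease that trims Okazaki fragments, had 2826, 1764, 3057 and 3153 with PNA2, against 2945, 3590 and 3840 with PBS, a change of -0.41 (limma adjusted p = 0.0326) that was -0.22 without replicate 2 and -0.13 in batch B, where it did not pass. The call of FEN1 was lost in 10 of 22 alternatives, among them the fits without PBS replicate 1, 2 or 4 or the first unnumbered PBS library (limma adjusted p from 0.0147 to 0.427). RPA3 had 827.1, 399.7, 669.7 and 700.8 with PNA2, against 561.5, 621.6 and 721.5 with PBS, so that replicate 2 lay below and replicate 1 above all PBS libraries. The small subunits of RPA, which coats single-stranded DNA, rose only without replicate 2: RPA2 by 0.19 (limma adjusted p = 0.0484, the lowest of the alternatives, the highest being 0.503) and RPA3 by 0.25 (limma adjusted p = 0.017, also the lowest, the highest being 1.0). For RPA2 the PNA2 libraries ran from 1267 to 1563 with or without replicate 2, so that library was not the lowest. The PBS libraries ran from 1132 to 1311 and overlapped them. RRM1 and RRM2, the subunits of ribonucleotide reductase, which makes deoxynucleotides, changed by -0.19 and -0.53 and did not pass; without replicate 2 these changes were 0.09 and -0.08.

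With MYC siRNA, 1 of the 44 genes rose and 0 fell, with a median log2 change of 0.014, against -0.001 over all genes. Over all genes tested 9.3% rose and 8.13% fell, and 4 of the 44 had an unadjusted p below 0.05, where 31.9% of all genes did. These tests take their spread from all 14 libraries at 48 h, and their batch term from the PBS and PNA2 libraries. PNA2 replicate 2 is among both. The 1 gene that rose was RFC1, the large subunit of the clamp loader, with scaled values of 2727, 2636, 2456 and 2579 in siRNA replicates 1 to 4, against 2080, 2276 and 2346 (lowest, median and highest) with PBS. The groups did not overlap, and the change was 0.24 (SE 0.08, 95% CI 0.08 to 0.41, limma adjusted p = 0.044). The call was lost in 13 of 21 alternatives (limma adjusted p from 0.0229 to 0.141), among them the fits without any 1 of the siRNA libraries, without PBS replicate 1 or 2 and without either unnumbered PBS library. PRIM1 was the highest change at 0.34 (95% CI 0.06 to 0.63, limma adjusted p = 0.0904), with 360.9, 310.8, 333.7 and 337.4 with siRNA, against 261.1, 278.2 and 296.1 with PBS. All 4 siRNA libraries lay above all PBS libraries for PRIM1. POLD2, the second subunit of polymerase delta, was the lowest at -0.34 (95% CI -0.59 to -0.09, limma adjusted p = 0.0587), with 2742, 2688, 2906 and 2783 with siRNA, against 2762, 3480 and 3842 with PBS. Within batch A, which holds every siRNA library, POLD2 fell by 0.41 and passed, 0 rose and the median was -0.056, where 9.04% of all genes rose and 8.45% fell. Leaving out PBS replicate 3 also gave 1 lower (8.13% of all genes). With siRNA and PBS fitted alone 3 rose and 7 fell, where 17.4% of all genes rose and 15.9% fell. That fit takes neither its spread nor its batch term from the PNA2 libraries. The part of PNA2 replicate 2 in the difference between the fits was not tested. With no rescaling 3 rose and 0 fell (15.0% and 0.523% of all genes), at a median of 0.236 where all genes shifted by 0.219. UHRF1, which had 3536, 3534, 3714 and 3480 with siRNA, lay below every PBS library but did not pass (-0.20, 95% CI -0.44 to 0.04, limma adjusted p = 0.238). For MCM5 the change was 0.01 with a 95% CI of -0.34 to 0.37, and for MCM2 -0.05 with a 95% CI of -0.39 to 0.29.

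The difference between the reagents was tested in the same fit, and it shares its libraries with the comparisons above. Against siRNA, 6 of the 44 genes were lower with PNA2 (CDC6, POLA2, RPA1, FEN1, UHRF1 and CHAF1A) and 0 higher, where 12.4% of all genes were lower and 11.5% higher. CDC6 had 1494, 1048, 1507 and 1597 in PNA2 replicates 1 to 4, against 1900, 1896, 1793 and 1749 in siRNA replicates 1 to 4. Every PNA2 library lay below every siRNA library. The difference was -0.47 (SE 0.11, limma adjusted p = 0.00622), it was -0.28 without PNA2 replicate 2, and it held in all 19 alternatives (limma adjusted p from 0.00302 to 0.0395), as did that of POLA2 (-0.59, limma adjusted p = 0.00514; -0.43 without PNA2 replicate 2). FEN1 and CHAF1A each lost their call in 1 of the 19. RPA1 lost its call in 10 of the 19 and UHRF1 in 8, both among them without PNA2 replicate 2 and without any 1 of the siRNA libraries. Without PNA2 replicate 2, 8 were higher and 4 lower, where 13.5% of all genes were higher and 14.6% lower. In that fit PNA2 replicate 1 is the only PNA2 library in batch A, which holds every siRNA library. The other PNA2 libraries are set against siRNA through the batch term. The 4 lower were CDC6, POLA2, FEN1 and CHAF1A. The 8 higher were POLD2 (0.56, limma adjusted p = 2.27e-05, range over the alternatives 2.27e-05 to 0.345), GINS2, RPA3, RFC5, MCM6, CDT1, TIPIN and MCM3, and each passed in that alternative alone. Leaving out PNA2 replicate 1 instead gave 16 lower, where 13.9% of all genes were lower. Within batch A, 0 were higher and 8 lower, where 11.1% of all genes were higher and 11.7% lower.

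**Figure D3:**
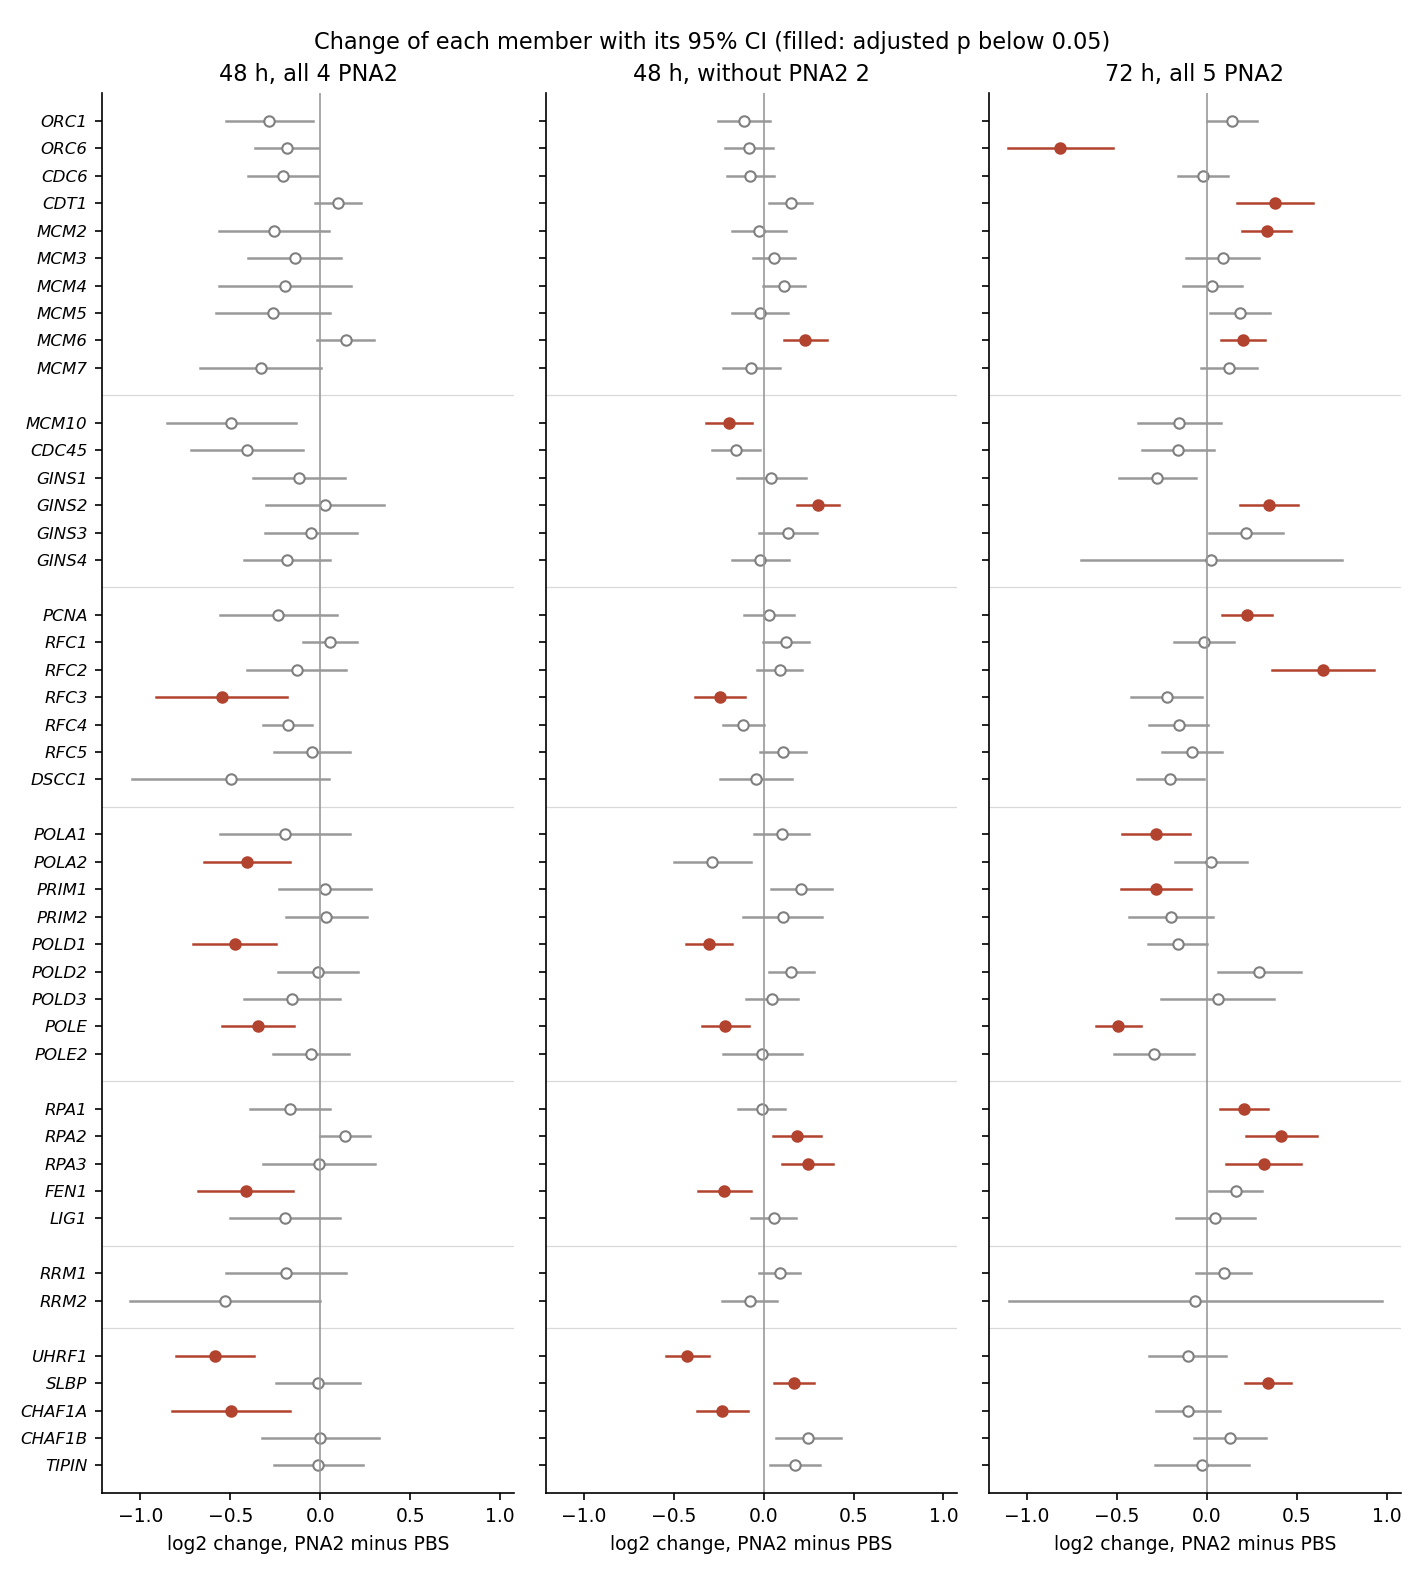
Log2 change, PNA2 minus PBS, of the 44 genes with its 95% confidence interval, at 48 h with all 4 PNA2 libraries, at 48 h without PNA2 replicate 2 and at 72 h, ordered by role, with filled points where the limma adjusted p is below 0.05. With all libraries 7 points are filled at 48 h, all left of 0; without replicate 2 there are 5 to the right and 7 to the left, and at 72 h 10 to the right and 4 to the left.

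With PNA2 at 72 h the genes moved both ways: 10 of the 44 rose (RFC2, RPA2, CDT1, GINS2, SLBP, MCM2, RPA3, PCNA, RPA1 and MCM6) and 4 fell (ORC6, POLE, POLA1 and PRIM1). The median change over the 44 was 0.027, against -0.005 over all genes. These 10 and 4 of the 44 stand against 12.1% higher and 11.7% lower among all 11985 genes tested. The PNA2 and PBS libraries did not overlap for 10 of the 44, 6 above and 4 below, where 10.0% of all genes lay wholly above and 9.18% wholly below. The calls of 8 genes held in all 17 alternatives (ORC6, POLE, CDT1, MCM2, GINS2, RFC2, RPA2 and SLBP), and the other 6 lost theirs in 3 to 8 of them. Leaving out PNA2 replicate 2 or PBS replicate 1 or 2 gave 6 higher (8.94%, 9.14% and 11.1% of all genes), and leaving out PNA2 replicate 1 or PBS replicate 1 or 3 gave 2 lower (9.22%, 8.35% and 8.84%).

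At 72 h 3 of the 10 licensing genes rose and 1 fell. MCM2 had normalized values of 5626, 5261, 6261, 5791 and 5791 in PNA2 replicates 1 to 5, against 4177, 4710, 4768, 4556 and 4604 in PBS replicates 1 to 5. Every PNA2 library lay above every PBS library, and the change was 0.33 (SE 0.06, 95% CI 0.20 to 0.47, limma adjusted p = 0.00379). MCM6 rose by 0.20 (limma adjusted p = 0.0231), with 3380, 3521, 3464, 3756 and 3441 with PNA2, against 3040, 2853, 3131, 3149 and 3122 with PBS. CDT1, which brings the MCM ring to the origin, had 2229, 2071, 2434, 1747 and 1886 with PNA2, against 1541, 1834, 1534, 1470 and 1555 with PBS. PBS replicate 2 lay inside the PNA2 range, and the change was 0.38 (SE 0.10, limma adjusted p = 0.016). ORC6, a small subunit of the origin recognition complex, fell the most of the 44. It had 881.3, 525.9, 525.1, 603.0 and 586.7 with PNA2, against 994.3, 1225, 1017, 1122 and 1053 with PBS. PNA2 replicate 1 stood nearest to PBS, yet the groups did not overlap, and the change was -0.82 (SE 0.13, 95% CI -1.11 to -0.52, limma adjusted p = 0.00216). ORC1 changed by 0.14 (limma adjusted p = 0.131), MCM5 by 0.18 (limma adjusted p = 0.105) and CDC6 by -0.02.

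Of the helicase activation genes GINS2 rose. It had 1574, 1674, 1895, 1485 and 1661 in PNA2 replicates 1 to 5, against 1254, 1363, 1306, 1242 and 1344 in PBS replicates 1 to 5, with no overlap. The change was 0.34 (SE 0.07, 95% CI 0.18 to 0.50, limma adjusted p = 0.00698). GINS4 was uneven within both groups, from 165.3 to 487.7 with PNA2 and from 184.1 to 492.4 with PBS, so that its 95% CI ran from -0.70 to 0.75. CDC45 changed by -0.16 and MCM10 by -0.15, and neither passed.

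RFC2, a small clamp loader subunit, had the largest increase. It had 1249, 1355, 1322, 1103 and 924.7 in PNA2 replicates 1 to 5, against 651.4, 749.6, 720.2, 985.6 and 700.5 in PBS replicates 1 to 5. The ranges met only at PNA2 replicate 5 and PBS replicate 4, and the change was 0.65 (SE 0.13, 95% CI 0.36 to 0.93, limma adjusted p = 0.00555). PCNA rose by 0.22 (limma adjusted p = 0.0241), with 5219, 5531, 5782, 5372 and 5113 with PNA2, against 4299, 4448, 4597, 4691 and 5135 with PBS. RFC3 did not pass at this time (-0.22, limma adjusted p = 0.091).

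The 9 polymerase and primase genes held 3 of the 4 that fell and 0 that rose. POLE had 3461, 3009, 3265, 3301 and 3303 in PNA2 replicates 1 to 5, against 4582, 4843, 4329, 4540 and 4693 in PBS replicates 1 to 5. The groups lay far apart, and the change was -0.49 (SE 0.06, 95% CI -0.62 to -0.37, limma adjusted p = 0.00045). POLA1 had 743.1, 780.8, 647.6, 866.5 and 869.5 with PNA2, against 978.0, 938.7, 951.8, 964.5 and 900.1 with PBS, a change of -0.28 (limma adjusted p = 0.0346). PRIM1 had 255.4, 314.5, 274.3, 296.2 and 317.9 with PNA2, against 339.1, 328.9, 358.0, 359.5 and 387.1 with PBS, also a change of -0.28 (limma adjusted p = 0.0387). For both genes the groups did not overlap, but each call was lost in 8 of the 17 alternatives. POLE2, the second subunit of polymerase epsilon, changed by -0.29 (limma adjusted p = 0.057) and POLD1 by -0.16 (limma adjusted p = 0.137).

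All 3 subunits of RPA rose at 72 h. RPA2 had 1332, 1409, 1665, 1157 and 1274 in PNA2 replicates 1 to 5, against 997.2, 1018, 1003, 1068 and 1011 in PBS replicates 1 to 5, with no overlap and a change of 0.41 (SE 0.09, limma adjusted p = 0.00794). RPA3 rose by 0.31 (limma adjusted p = 0.0335) and RPA1, the large subunit, by 0.20 (limma adjusted p = 0.0324). SLBP had 3191, 3229, 3163, 2970 and 3058 with PNA2, against 2723, 2426, 2490, 2370 and 2342 with PBS. Its libraries did not overlap either, and it rose by 0.34 (SE 0.06, limma adjusted p = 0.00295). FEN1 changed by 0.16 (limma adjusted p = 0.105), CHAF1A by -0.11 and UHRF1 by -0.11 (95% CI -0.32 to 0.11, limma adjusted p = 0.448). UHRF1 ran from 2905 to 4006 with PNA2 and from 3381 to 4156 with PBS, so the groups overlapped. RRM2 varied within both groups, with 1324, 2753, 568.9, 773.3 and 2498 with PNA2, against 838.2, 2076, 1072, 918.5 and 2918 with PBS, and its 95% CI ran from -1.10 to 0.97. In both groups replicates 2 and 5 were the highest for RRM2. RRM1 changed by 0.09 and TIPIN by -0.03.

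**Figure D4:**
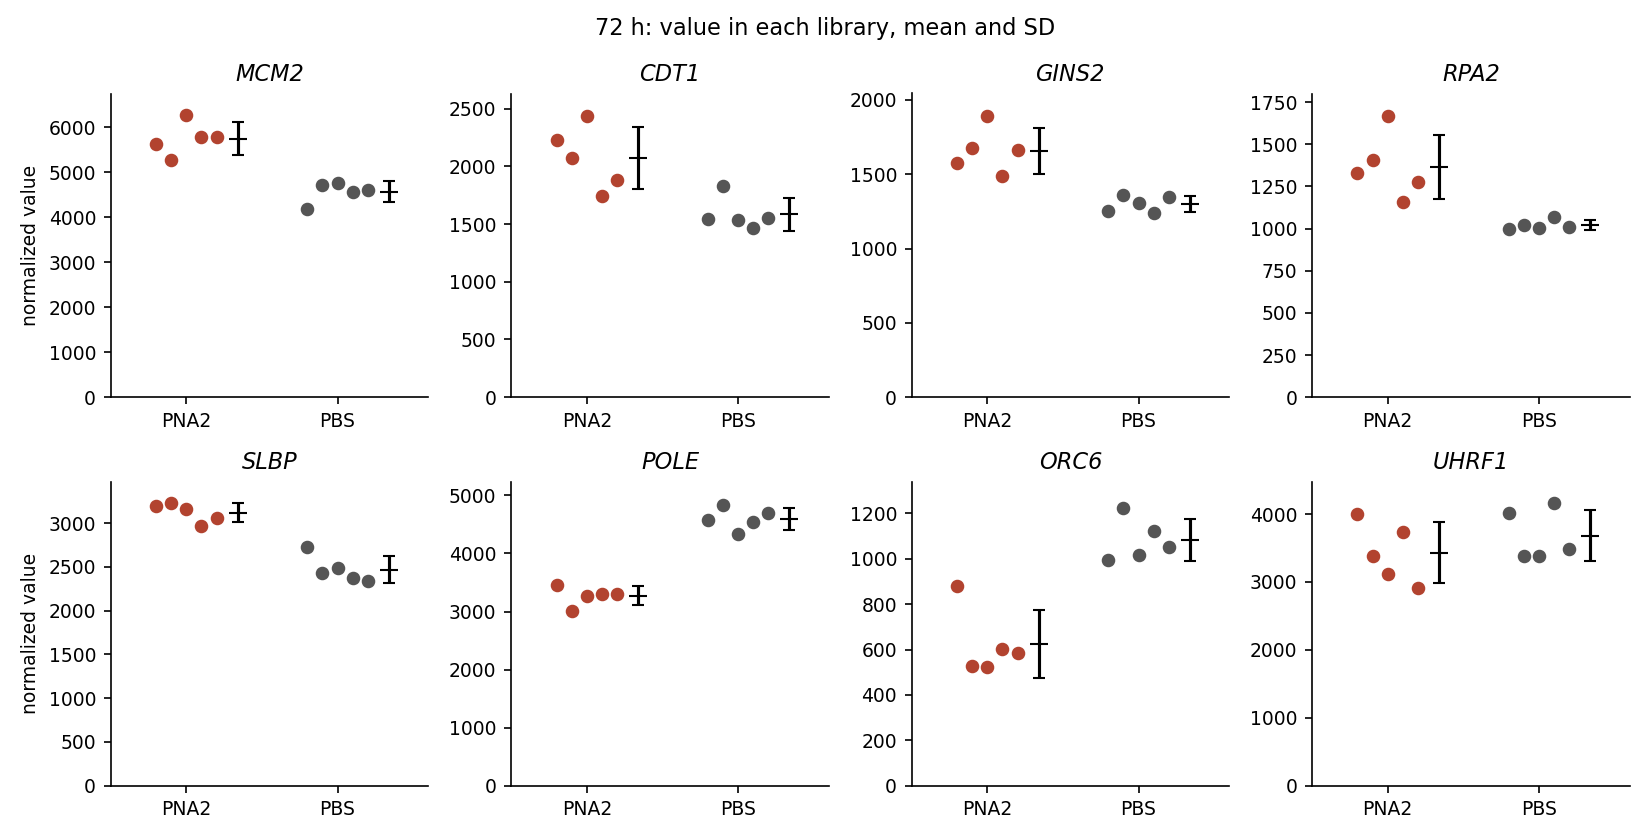
Normalized value at 72 h in each library for 8 genes (y axis, from 0), PNA2 and PBS, with the mean and SD beside the points. MCM2, GINS2, RPA2 and SLBP lie wholly above PBS, POLE and ORC6 wholly below it, and UHRF1 overlaps.

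The PNA2 comparisons at the 2 times use separate libraries, so their calls can be set side by side. Without PNA2 replicate 2, all 5 of the 5 genes higher at 48 h (GINS2, MCM6, RPA2, RPA3 and SLBP) were among the 10 higher at 72 h. Over the 11314 genes tested at both times 420 were higher at both, 38.0% of those at 48 h and 29.9% of those at 72 h. At 48 h MCM6, RPA2, RPA3 and SLBP were called in that alternative alone, 1 of 22, and GINS2 in 2 of 22. Of the genes lower, POLE was shared, 1 of 7 at 48 h and 1 of 4 at 72 h, and 0 of the members passed in opposite directions. Over all genes 354 were lower at both times, 31.0% of those at 48 h and 25.9% of those at 72 h. With all PNA2 libraries the shared members were 0 higher and POLE lower. The changes at 72 h were related to transcript length: over the 44 genes, Pearson's r between the log2 change and the log2 exon length was -0.32, and it was also -0.32 over the 11981 tested genes with a length. Genes share libraries and are not independent, and the part of this relation in the members' changes was not tested. At 48 h with all PNA2 libraries r was -0.21 over the members and 0 over all genes, and without replicate 2 it was -0.24 and -0.03.

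A list of 42 other replication genes gave the surroundings. With PNA2 at 72 h 4 of 42 rose and 16 fell, with a median of -0.196, where 12.1% of all genes rose and 11.7% fell. The number lower rested on several libraries: it was 8 without PNA2 replicate 2, PBS replicate 1 or PBS replicate 4, 9 without PNA2 replicate 1 and 10 without PBS replicate 5. In these fits 8.81%, 8.35%, 8.52%, 9.22% and 9.1% of all genes were lower, in the same order. The largest decrease was that of MTBP, a partner of the origin firing factor TICRR, which fell by 1.00 (limma adjusted p = 0.00312). CLSPN, the checkpoint mediator claspin, fell by 0.64 (limma adjusted p = 0.00221), DNA2, a nuclease and helicase, by 0.68 (limma adjusted p = 0.00284), and CHTF18, a subunit of an alternative clamp loader, by 0.61 (limma adjusted p = 0.00418). ASF1B, a histone chaperone, rose by 0.35 (limma adjusted p = 0.00646). With PNA2 at 48 h 0 of 41 tested rose and 9 fell, without replicate 2 it was 1 and 9, and without replicate 1 it was 0 and 15. Of all genes 8.11% rose and 8.57% fell, 8.58% and 9.29% without replicate 2, and 10.6% and 11.8% without replicate 1. CHTF18 fell by 0.74 (limma adjusted p = 0.00116), RECQL4, a helicase, by 0.54 (limma adjusted p = 0.00238) and TOP1, the topoisomerase that relaxes DNA ahead of the fork, by 0.50 (limma adjusted p = 0.00448), and all 3 passed without replicate 2 as well. With siRNA 1 of 41 rose and 2 fell: POLD4, the small subunit of polymerase delta, rose by 1.15 (limma adjusted p = 0.0015), while MCMBP, an MCM binding protein, fell by 0.32 (limma adjusted p = 0.0127) and CHTF18 by 0.46 (limma adjusted p = 0.0257). With siRNA 9.3% of all genes rose and 8.13% fell. The 2 lower became 0 without PBS replicate 2 or siRNA replicate 4, 1 without PBS replicate 1, siRNA replicate 1 or siRNA replicate 2, and 4 without the first unnumbered PBS library, and without PBS replicate 4 there were 2 higher. In these fits 3.78%, 4.32%, 4.71%, 4.56%, 4.59% and 8.15% of all genes were lower, in the same order. Without PBS replicate 4, 10.1% of all genes were higher. Against siRNA, 3 of 41 were higher with PNA2 and 9 lower, 7 and 5 without PNA2 replicate 2, and 5 were lower without any 1 of the siRNA libraries. Of all genes 11.5% were higher and 12.4% lower, and 13.5% and 14.6% without PNA2 replicate 2. Leaving out 1 siRNA library gave 9.59% to 9.98% of all genes lower. Of 33 replication-dependent histone genes 15 were tested at 48 h and 18 at 72 h. With siRNA 4 rose and 0 fell, among them the linker histone gene HIST1H1C by 1.11 (limma adjusted p = 0.000101), where 9.3% of all genes rose and 8.13% fell. That 4 became 1 without PBS replicate 1 or siRNA replicate 4 and 2 without PBS replicate 2 or siRNA replicate 3. In these fits 5.81%, 5.96%, 4.84% and 6.62% of all genes rose, in the same order. With PNA2 at 48 h 1 of the 15 rose and 0 fell (8.11% and 8.57% of all genes). Without replicate 2 it was 1 and 1 (8.58% and 9.29% of all genes). Without replicate 4 it was 2 and 0 (6.11% and 6.38%). With PNA2 at 72 h 2 of the 18 rose and 0 fell (12.1% and 11.7% of all genes), with 1 lower without PBS replicate 4 (8.52%).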

How the data were processed

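RNA sequencing of 24 libraries was used as deposited. Per the labels, RNA was extracted with RNeasy kits, TruSeq stranded libraries were made (total RNA and mRNA kits are both named) and sequenced on a NextSeq 500. The build GRCh38 and the tools DESeq2, HTSeq 0.11.0, SAMtools 1.7, Trimmomatic and HISAT2 2.2.1 are listed per the submitters' processing notes. The deposited 48 h values are a score: read counts adjusted per gene and batch by the authors, not divided by depth, below 0 in 5099 genes (lowest -223.8). The deposited 72 h values are a normalized signal: read counts divided by a size factor per library (0.73 to 1.187), from which whole reads were recovered in 100% of values within 0.01. Second copies of 18 genes at 72 h, 0 in every library, were left out.

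Negative values at 48 h became 0. Each 48 h library was then divided by a TMM scale (edgeR 4.0.16) and transformed as log2(value + 1). The batches were read from ties between libraries. At 72 h log2(deposited value + 1) was used. A gene had to reach 10 in 4 or more libraries (48 h) or 5 or more (72 h). Genes that did were fitted with limma 3.58.1 (R 4.3.3) with a mean-variance trend, with group and batch at 48 h over all 14 libraries and group at 72 h over 10. Fold changes are on the log2(value + 1) scale. All 44 members passed the filter at both times. Two-sided p-values were adjusted by Benjamini and Hochberg across every gene that passed the filter, and the threshold was 0.05. Alternatives were other scalings, pseudocounts, filters and batch treatments, fits without each library, and edgeR and DESeq2 1.42.0 on the recovered reads. The scripts were tested on simulated data. Exon lengths and overlaps came from GENCODE 29.

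The members and gene lists were chosen with earlier results of these data known. Named were MYC, each member called in any comparison, set members of each role, the largest changes, and up to 5 called genes of the list of other replication genes per comparison.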

Additional observations from a re-analysis of the deposited data

Results flagged for a closer look

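Over the groups of 4 to 6 libraries, 150 sets of values were examined for a value standing apart from the rest of its group by Dixon's criterion. The sets share libraries and are not independent, and some genes were named because they were called in these data. Their number was therefore not tested against chance. A value stood apart in 19 sets, where chance alone gives about 1 in 20. Of these, 9 were PNA2 replicate 2 at 48 h, which was the lowest of its group for the median log2 difference of the members (-0.768) and for the scaled values of MCM2 (4155), MCM5 (3505), MCM6 (3197), RFC2 (819.3), PRIM1 (193.2), RRM1 (2215), UHRF1 (2048) and CHAF1A (1101).

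Elsewhere at 48 h, siRNA replicate 1 was the highest of its group for POLA2 (271.0) and RRM1 (5197), and PBS replicate 3 was the lowest of its group for RPA1 (5013) and RRM1 (3970). At 72 h, PNA2 replicate 1 was the highest of its group for ORC6 (881.3) and the lowest for RRM1 (3178), and PNA2 replicate 3 was the highest for CDC45 (871.4) and the lowest for MYC (459.9). Among the PBS libraries at 72 h, replicate 2 was the highest for CDT1 (1834) and replicate 5 the lowest for CDC45 (697.1).

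ORC1 changed in opposite directions at the 2 times, by -0.28 on the log2 scale at 48 h and by 0.14 at 72 h. At 48 h the PNA2 libraries ran from 607.2 to 1032, on both sides of the PBS mean of 1023. Without PNA2 replicate 2 they ran from 801.0 to 1032. At 72 h they ran from 916.6 to 1037, all above the PBS mean of 897.9. Neither the change at 48 h nor that at 72 h passed the threshold, and the difference between the times was not tested.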

How the results depend on the processing

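The fewest and most members called when 1 library was left out, in turn, were 0 and 5 higher and 3 and 16 lower for PNA2 minus PBS at 48 h, 0 and 1 higher and 0 and 1 lower for siRNA minus PBS, 0 and 8 higher and 4 and 16 lower for PNA2 minus siRNA, and 6 and 13 higher and 2 and 5 lower for PNA2 minus PBS at 72 h. The members' medians then ran from -0.268 to 0.036, 0.007 to 0.051, -0.376 to 0.052 and -0.011 to 0.067, in the same order, and the log2 change of MYC from 0.153 to 0.29, -0.846 to -0.744, 0.998 to 1.123 and -0.43 to 0.237. Without PNA2 replicate 2 the changes of RPA3 (0.246) and SLBP (0.168) against PBS and of MCM3 (0.212), RPA3 (0.308) and TIPIN (0.247) against siRNA turned positive, while without PNA2 replicate 1 they were -0.157, -0.111, -0.185, -0.257 and -0.197, in the same order. For PNA2 minus PBS at 48 h the members lower were 1 with no rescaling (1.18% of all genes), 4 with no filter (800 of 29982 genes), 4 in batch A (7.52%), 4 in batch B (7.33%, with 1 higher, 5.86%) and 2 with only the groups compared (3.77%). MYC then passed in 3 alternatives, with no rescaling (0.435, limma adjusted p = 0.0213), in batch B (0.451, limma adjusted p = 0.00826) and without PNA2 replicate 2 (0.28, limma adjusted p = 0.0403), the range over its 22 alternatives being 0.00826 to 0.877. For siRNA minus PBS the members higher were 0 with no batch term (506 of 14136 genes), with no filter (1088 of 29982) and in batch A (9.04% of all genes). They were 3 with no rescaling (15.0%, median 0.236) and with only the groups compared (17.4%, with 7 lower, 15.9%, median -0.062). In batch A 1 was lower (8.45%, median -0.056). Batch B holds no siRNA library and gave no such fit. The cause of these shifts was not tested.

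Whether the replicate numbers pair the libraries could not be told. Correlations of same-numbered libraries' deviations ran from -0.728 to 0.191 at 48 h and from -0.05 to 0.203 at 72 h. Those of differently numbered libraries ran from -0.775 to 0.698 and from -0.185 to 0.13. The deviations of the numbered libraries in batch B cancel out by construction of the fit. The -0.728, between PBS replicate 3 and PNA2 replicate 3, therefore says nothing about pairing. Deviations within each group cancel out too. The same limit therefore holds for the -0.775 and the 0.698, between PBS replicate 3 and PNA2 replicates 4 and 2. With the replicate block the members lower were 1 for PNA2 minus PBS at 48 h, 2 for PNA2 minus siRNA and 2 at 72 h, and 0 were higher with siRNA. Of all genes 392, 923 and 1390 were lower, in the same order, and 569 higher with siRNA. The genes tested were 13980 at 48 h and 11985 at 72 h. At 48 h the block can use only the numbered libraries. On these with no block, an alternative chosen after seeing the data, 4 members were lower with PNA2 and 0 higher with siRNA. Of all 13980 genes 885 were lower with PNA2 and 1179 higher with siRNA in that fit.

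Over all genes, higher and lower calls were 1146 and 1212 for PNA2 minus PBS at 48 h, against 2014 and 167 with no rescaling, 521 and 519 with only the groups compared, 448 and 392 with the block, and 800 lower with no filter. For siRNA minus PBS they were 1315 and 1149, against 2124 and 74, 2397 and 2191, 569 and 408, and 506 and 695 with no batch term. For PNA2 minus siRNA they were 1630 and 1746, against 700 and 1085 with no rescaling and 890 and 923 with the block. With edgeR and DESeq2 on the recovered reads at 72 h, 10 and 11 members were higher and 6 and 6 lower. Of all 11985 genes edgeR called 1395 higher and 1442 lower, and of 11982 DESeq2 called 1693 higher and 1626 lower. The 48 h values give no read depth, so counting error could not be separated there.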
